A study of Mus musculus with 2 samples.

Results

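Canonical Wnt signalling components were examined in sorted mouse bone marrow cells of the surface phenotype Lin-c-kit+Sca1+ (LSK), a fraction without the antigens of mature blood lineages but with Kit, the receptor of stem cell factor, and Sca-1. Blood stem cells and multipotent progenitors are concentrated in it. The genes were 10 named components: the receptors Fzd4, Fzd7 and Lrp6, the transducer Dvl1, the destruction complex genes Axin1, Apc and Gsk3b, the beta-catenin gene Ctnnb1, and the nuclear partners Tcf7 and Lef1. All probe sets annotated to them were taken, whatever their values. These were 12 probe sets for 8 of the 10 genes, among 8251 genes named by probe sets with a single gene name. Gsk3b and Tcf7 were not analysed here, since no probe set used was annotated to either.

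The study held 2 samples in 1 group, called sample 1 and sample 2 after their titles, each measured on 1 array after 2 rounds of RNA amplification. The labels name no treatment, genotype, strain or age and no second group, and leave unsaid whether separate animals or sorts were used. The spread given here is thus between samples that may be technical repeats, and no gene could be tested. In such bulk samples, fewer cells expressing a gene and less RNA per cell cannot be told apart. The number of arrays limits the precision of every value. Of the sorting antigens, Kit had signals of 25.8 and 19.4, and Ly6a, which encodes Sca-1, was not analysed here.

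In the canonical pathway a Wnt ligand binds a Frizzled receptor together with the co-receptor Lrp5 or Lrp6. Dishevelled proteins are then recruited, and the destruction complex of Axin, Apc, casein kinase 1 and glycogen synthase kinase 3 no longer marks beta-catenin for degradation. Beta-catenin accumulates, enters the nucleus and activates transcription together with the TCF and LEF factors. In haematopoiesis the pathway is known for its dose-dependent effects on stem cell maintenance, and Tcf7 and Lef1 for their roles in early T and B lymphocyte development.

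Signals are linear array units after quantile normalization, which gives both arrays the same distribution. A gene was called above the control level when a probe set of it exceeded, in both samples, the 90th percentile of the 15 probe sets for bacterial genes on the same array. This level was 12.1 in sample 1 and 8.91 in sample 2. Before log2 was taken, signals under 20 were set to 20, the floor. Where a gene had several probe sets, the strongest by mean log2 over both samples gave its value. Signals of different genes were not ranked or set against each other, because probes differ in how strongly they hybridise.

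Transcripts from the cell surface to the nucleus were measured in both samples: 7 of the 8 measured members were above the control level, and Apc was the exception. Over all genes 57.0% were above it, but the members were chosen with earlier results of these data known, which limits this comparison. For 6 of the 7 the samples differed by less than 2-fold, and Lef1, 2.03-fold higher in sample 1, lay just past that threshold. Of all genes above the control level, 20.7% were 2-fold or more apart, 11.0% with sample 1 higher and 9.62% with sample 2 higher. The count of 1 in 7 is a description of these arrays.

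**Figure D1:**
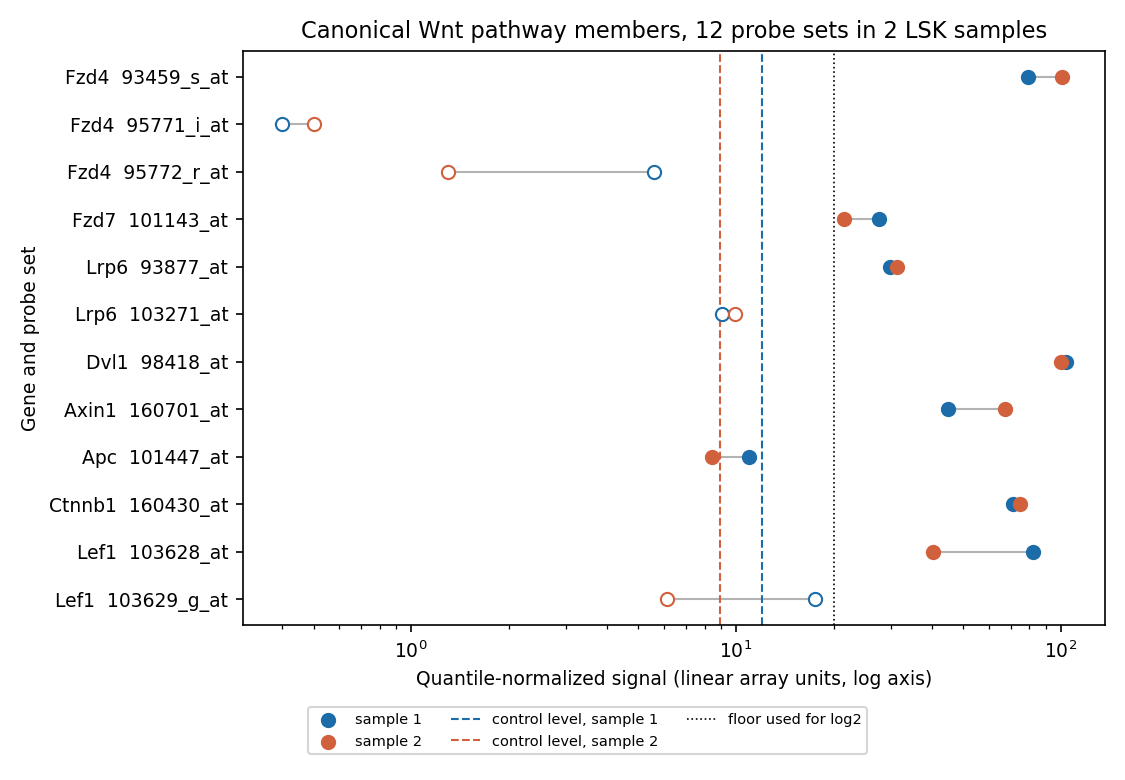
Signal (log axis, quantile-normalized linear units) of the 12 probe sets of 8 measured members in sample 1 (blue) and sample 2 (orange), with filled points for the probe set that gave the gene its value, open points for the others, dashed lines for each sample's control level and a dotted line for the floor of 20. Dvl1, Ctnnb1 and the filled Lrp6 points nearly coincide, the filled Lef1 points lie 2.03-fold apart, and both Apc points lie below their control levels.

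Among the receptors, Fzd4 encodes a Frizzled that serves both Wnt ligands and the ligand norrin. By probe set 93459_s_at, sample 1 gave 79.5 and sample 2 gave 101 (log2 mean 6.48 ± 0.24, SD, n = 2), a 1.27-fold difference. The other Fzd4 probe sets gave no signal above the control level: 95771_i_at had 0.40 and 0.50, and 95772_r_at had 5.60 and 1.30. In this array's naming the suffix _s marks probes that can match more than a single transcript, and _i and _r mark sets made with fewer probes or relaxed rules. The Fzd4 call thus rested on 1 of 3 probe sets, and the signal behind it may include another transcript, which was not tested.

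Fzd7, a Frizzled with a well-known role in embryonic and epithelial stem cells, gave 27.6 in sample 1 and 21.4 in sample 2 by its only probe set (log2 mean 4.60 ± 0.26, SD, n = 2). Both signals were near the floor, and sample 1 was 1.29-fold higher. Lrp6, the co-receptor whose cytoplasmic tail binds Axin once phosphorylated, had 29.7 and 31.3 (4.93 ± 0.05, SD, n = 2), so the samples were 1.05-fold apart. Its other probe set, 103271_at, had 9.05 and 9.90, above the control level in sample 2 only.

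Dvl1, which carries the signal from Frizzled to the destruction complex, had 103 in sample 1 and 99.8 in sample 2 (6.67 ± 0.04, SD, n = 2). This 1.04-fold difference was the smallest of the 7 members above the control level. For its relatives the call was not made: Dvl2 had 6.35 and 38.9 by 161408_r_at and 6.25 and 7.75 by its other probe set, and Dvl3 had 6.85 and 7.40.

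In the destruction complex, the scaffold gene Axin1 gave 45.0 in sample 1 and 67.4 in sample 2 (5.78 ± 0.41, SD, n = 2). Sample 2 was 1.50-fold higher, the second largest difference among the members. Apc, the large scaffold lost in colorectal tumours, had 10.9 and 8.45, below the control level in each sample, so no fold is given. A signal below that level does not show that the transcript was absent. Among their partners, Gsk3a, the other glycogen synthase kinase 3 gene, had 1534 and 1772, 1.16-fold apart. The casein kinase gene Csnk1a1, whose product primes beta-catenin for that kinase, had 484 and 425, and by a second probe set 280 and 150. The ubiquitin ligase gene Btrc, which recognises phosphorylated beta-catenin, had 6.60 and 22.8 and passed the control level in sample 2 only. The other Btrc probe set had 5.95 and 1.70, below the control level in both samples and higher in sample 1.

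Ctnnb1, the gene of beta-catenin itself, was nearly equal in both samples. The single probe set gave 71.2 in sample 1 and 74.8 in sample 2 (6.19 ± 0.05, SD, n = 2), 1.05-fold apart, and the deposited value was 73.0 in both. Canonical signalling is known to act mainly on the stability of the protein, which the array does not measure. Plakoglobin (Jup), a close relative of beta-catenin, had 4.88 and 10.8 and was above the control level in sample 2 only. Alpha-catenin (Ctnna1), which links beta-catenin at cell junctions to actin, had 10.5 and 16.2, likewise above it in sample 2 only. The other Ctnna1 probe set had 10.15 and 1.40, below the control level in both samples and higher in sample 1.

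Lef1, the nuclear partner that binds DNA through an HMG box and recruits beta-catenin, was the member that differed most. By probe set 103628_at it gave 82.2 in sample 1 and 40.5 in sample 2 (5.85 ± 0.72, SD, n = 2), 2.03-fold higher in sample 1. A further probe set, 103629_g_at, designed from the same sequence entry and so not independent, had 17.4 and 6.15. It lay below the floor in both samples and below the control level in sample 2, with sample 1 again the higher. The 2-fold call depended on the scaling: the fold was 2.15 with the deposited values, 1.95 with median-centred arrays and 1.58 with an offset of 32 added before log2. The direction did not change under any of these.

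Lef1 is also a gene of early lymphoid, T and B cells. Markers of T and B cells went in both directions, and those of early lymphoid cells were mostly higher in sample 2. Of 18 measured T and NK cell genes 5 were above the control level, 3 of them higher in sample 2 and 2 in sample 1, with a median log2 difference of 0.03. The signals of all 18 summed to 230 in sample 1 and 273 in sample 2. Thy1 had 14.2 and 42.5. The 2 higher in sample 1 were Lat, an adaptor of the T cell receptor, with 63.6 and 51.9, and the kinase gene Zap70, with 29.5 and 15.6. The other Zap70 probe sets were not above the control level in sample 2. The T cell receptor complex genes Cd3d, Cd3e and Cd3g had signals between 0.60 and 7.75, not above the control level in either sample. Of 11 measured B cell genes 8 were above it, 6 of them higher in sample 2 and 2 in sample 1, with a median log2 difference of 0.17. All 11 summed to 1156 in sample 1 and 969 in sample 2. Such sums follow the genes whose probes hybridise most strongly, here the immunoglobulin gene Ighm with 935 and 667. The next strongest Ighm probe set had 102 and 139, higher in sample 2. Of the weaker ones, 101870_at had 125 and 2.15, 99420_at 35.45 and 4.10, and 100377_f_at 21.45 and 5.15. These were above the floor in sample 1 only. The remaining Ighm probe sets lay below the floor in both samples and went in both directions. The B cell receptor genes Cd79a and Cd79b had 32.8 and 31.2, and 38.1 and 38.5. Of 13 early lymphoid genes 8 were above it, 7 of them higher in sample 2, with a median log2 difference of 1.56. Higher by 2-fold or more were 5 in sample 2 and 0 in sample 1, and all 13 summed to 561 and 1734. Among these, the terminal transferase gene Dntt had 83.3 and 374 by its strongest probe set, 161409_f_at. Its other probe sets had 10.25 and 111, and 3.95 and 14.0, above the control level in sample 2 only. Rag1, of antigen receptor recombination, had 44.2 and 48.4, though 0.75 and 1.05 by a second probe set. The interleukin 7 receptor gene Il7r had 6.60 and 35.9, above the control level in sample 2 only. The part of such cells in the Lef1 difference was not tested.

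Lef1 is shown with its start regions because it was the member 2-fold apart and because TCF and LEF factors themselves recognise a short core, CTTTG, searched on both strands. The 4 RefSeq starts of Lef1 (GRCm38.p6) each had the core at least once in the 250 bases before them, 3 times before the most downstream start. These windows are not all separate, as the most upstream overlaps the next for most of its length and shares a match with it. The most upstream window (chr3:131110047-131110296, plus strand) and the most downstream window (chr3:131156044-131156293, plus strand) are printed 5′ to 3′, with the core or its reverse complement CAAAG in capitals.
Lef1 upstream start: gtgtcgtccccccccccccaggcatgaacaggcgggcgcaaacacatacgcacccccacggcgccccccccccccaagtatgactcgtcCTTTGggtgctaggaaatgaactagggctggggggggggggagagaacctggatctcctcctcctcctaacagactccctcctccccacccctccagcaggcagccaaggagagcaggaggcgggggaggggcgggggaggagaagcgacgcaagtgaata
Lef1 downstream start: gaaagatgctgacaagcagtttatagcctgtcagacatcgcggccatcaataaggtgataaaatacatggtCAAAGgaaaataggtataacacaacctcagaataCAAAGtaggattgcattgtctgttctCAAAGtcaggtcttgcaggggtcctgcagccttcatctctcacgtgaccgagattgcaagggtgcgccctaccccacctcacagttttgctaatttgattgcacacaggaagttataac
The core is too short to be selective, as 48.6% of all 32851 windows of this length hold it. Of the other members with a window, Fzd7 and the unmeasured Gsk3b had it, and Dvl1, Fzd4, Ctnnb1 and the unmeasured Tcf7 did not. A match is a description of these letters and not evidence of binding. The array does not show which start produced the Lef1 signal.

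The members had no common direction. Of the 7 above the control level, Fzd4 and Axin1 were higher in sample 2 and Fzd7 and Lef1 higher in sample 1 under each scaling. The small differences of Lrp6, Dvl1 and Ctnnb1 had no fixed sign: Lrp6 was -0.05 on the log2 scale (sample 2 minus sample 1) with the deposited values, Dvl1 0.03 with median-centred arrays, and Ctnnb1 0 as deposited. The median log2 difference was 0.07 over the 7 members and 0 over all 4707 genes above the control level. The median absolute log2 difference was 0.34 for the members and 0.46 for all genes above the control level. All 7 had both signals above the floor, and over the 3338 genes of that kind the median absolute difference was 0.52 and 22.6% were 2-fold or more apart. The pooled replicate SD on the log2 scale was 0.34 for the members and 0.62 for those 3338 genes.

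The control level was permissive, since 13 of 48 measured genes typical of liver, brain, muscle, germ cells and other organs also passed it. A stricter level, the 90th percentile of the probe sets of those organ genes, was 43.7 in sample 1 and 34.4 in sample 2. Fzd4, Dvl1, Axin1, Ctnnb1 and Lef1 passed it in both samples, 5 of 8 members against 22.5% of all genes. Here too the choice of members with earlier results known limits the comparison. Axin1 passed narrowly in sample 1, with 45.0, and Lef1 narrowly in sample 2, with 40.5. Fzd7 and Lrp6 did not pass it in either sample. Neither did Kit, a gene of the sort, with 25.8 and 19.4, so failing this level does not show that a transcript was absent.

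Within a wider list of 110 measured pathway genes, which includes the 8 members, counts above the control level were taken by role. Inside the cell, these were 15 of 17 nuclear partners, 8 of 10 cytoplasmic transducers and 13 of 19 destruction complex genes. For receptors the count was 7 of 14, and for genes of beta-catenin and its junctions 4 of 8. Outside the cell it was 5 of 17 genes of Wnt ligands and their secretion and 2 of 8 secreted antagonists. Of the target genes 5 of 22 were above it. In all, 58 of 110 were above it, 52.7%, beside the 57.0% of all genes. Without the members it was 51 of 102. The differences between roles were not tested.

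**Figure D2:**
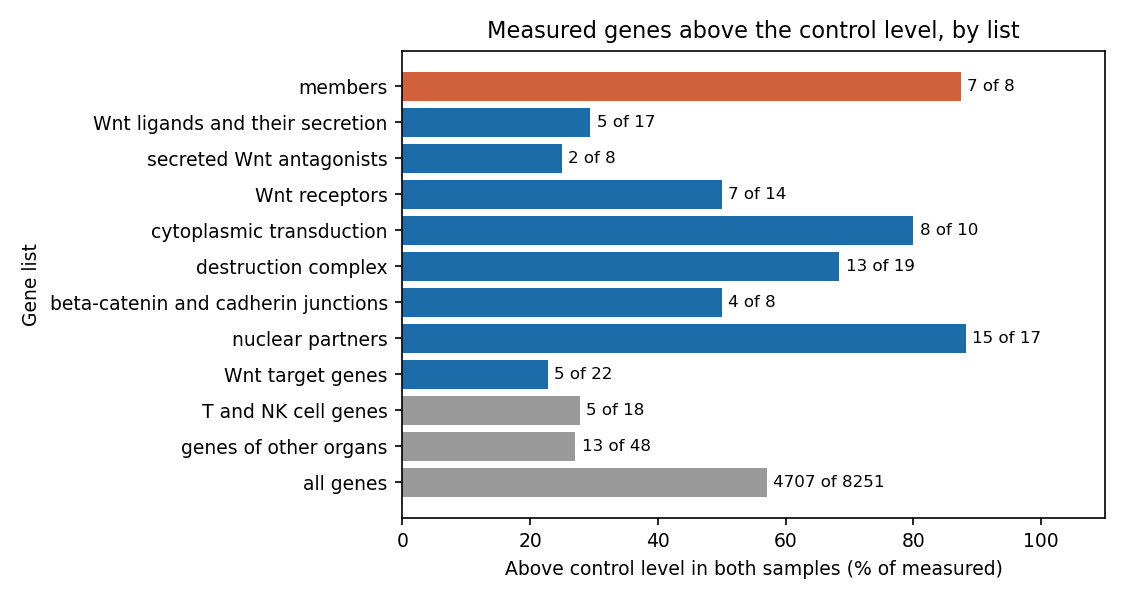
Share of measured genes above the control level in both samples (percent, bars from 0, with counts) for the members, 8 roles of the Wnt pathway and 3 comparison lists. Nuclear partners (15 of 17) and members (7 of 8) have the longest bars, and Wnt target genes (5 of 22) the shortest.

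Among the ligand genes, Wnt1 had 38.9 in sample 1 and 22.7 in sample 2, Wnt10a 20.2 and 20.1, and Wnt5b 14.6 and 21.1. Wls, which carries Wnt proteins to the cell surface, had 50.6 and 33.0. None of these 4 genes passed the stricter organ gene level in both samples. Of the receptors that are no members, Fzd3 (39.6 and 37.4), Fzd8 (17.8 and 21.1), Fzd9 (28.6 and 11.7) and Ryk exceeded the control level on both arrays, and Fzd1, Fzd2, Fzd6 and Lrp5 did not. The other Fzd3 probe set had 4.30 and 5.75, below the control level in both samples. The atypical receptor gene Ryk had 30.9 and 31.8, and by a second probe set 18.6 and 2.70. The 5 of 22 target genes above the control level were Lef1, Jun, Birc5, Ccnd1 and Myc. Birc5, which encodes the mitotic protein survivin, had 35.1 and 20.9, the cyclin gene Ccnd1 17.1 and 22.9, and Myc 14.0 and 18.1. By its other probe set Ccnd1 had 11.6 and 7.60, below the control level in both samples. Axin2, a feedback inhibitor widely read as a pathway target, had 12.9 in sample 1, just above the control level, and 3.45 in sample 2, below it.

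Of the 58 pathway genes above the control level, 8 were 2-fold or more apart, or 7 besides Lef1, beside the 20.7% of all genes. Higher in sample 2 were 5 genes and higher in sample 1 were 3. The nuclear factor gene Tcf7l1, a TCF best known as a repressor of Wnt targets, went opposite to Lef1, with 38.0 in sample 1 and 90.9 in sample 2, 2.39-fold apart. Its other probe set had 8.45 and 51.6, also higher in sample 2. Tle5, which encodes a short Groucho-family protein, was at least 4.22-fold higher in sample 2 (15.8 and 84.3). Tcf7l2, the remaining TCF gene, had 37.8 and 51.6, a 1.37-fold difference, by a probe set whose suffix _f marks probes shared within a gene family. The other Tcf7l2 probe set had 7.05 and 11.05, above the control level in sample 2 only.

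The other nuclear partners named by the rule differed by less than 2-fold. The coactivator gene Crebbp had 87.6 and 170, 1.94-fold higher in sample 2, and Ctnnbip1, whose product blocks beta-catenin from TCF factors, had 44.8 and 80.1. The corepressor gene Tle4 had 4.40 and 5.15, below the control level in both samples, and Ep300 was not analysed here. Frat1, a binding partner of glycogen synthase kinase 3, had 30.7 and 24.2.

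The remaining genes past 2-fold were kinase, phosphatase, ligase and target genes. The casein kinase gene Csnk1g2, whose family phosphorylates Lrp6, had 40.8 and 104, 2.56-fold higher in sample 2. The phosphatase 2A scaffold gene Ppp2r1a had 135 and 279, 2.07-fold higher in sample 2, while its regulatory subunit gene Ppp2r5c had 106 and 47.8, 2.22-fold higher in sample 1. Fbxw11, a ubiquitin ligase gene related to Btrc, was at least 2.25-fold higher in sample 1 by a probe set that gave 45.1 and 1.75. Its other probe set, which alone exceeded the control level on both arrays, had 21.1 and 25.4, so its probe sets disagreed. Jun, listed as a Wnt target but also an immediate early gene, was at least 10.1-fold higher in sample 2 (14.9 and 201).

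**Figure D3:**
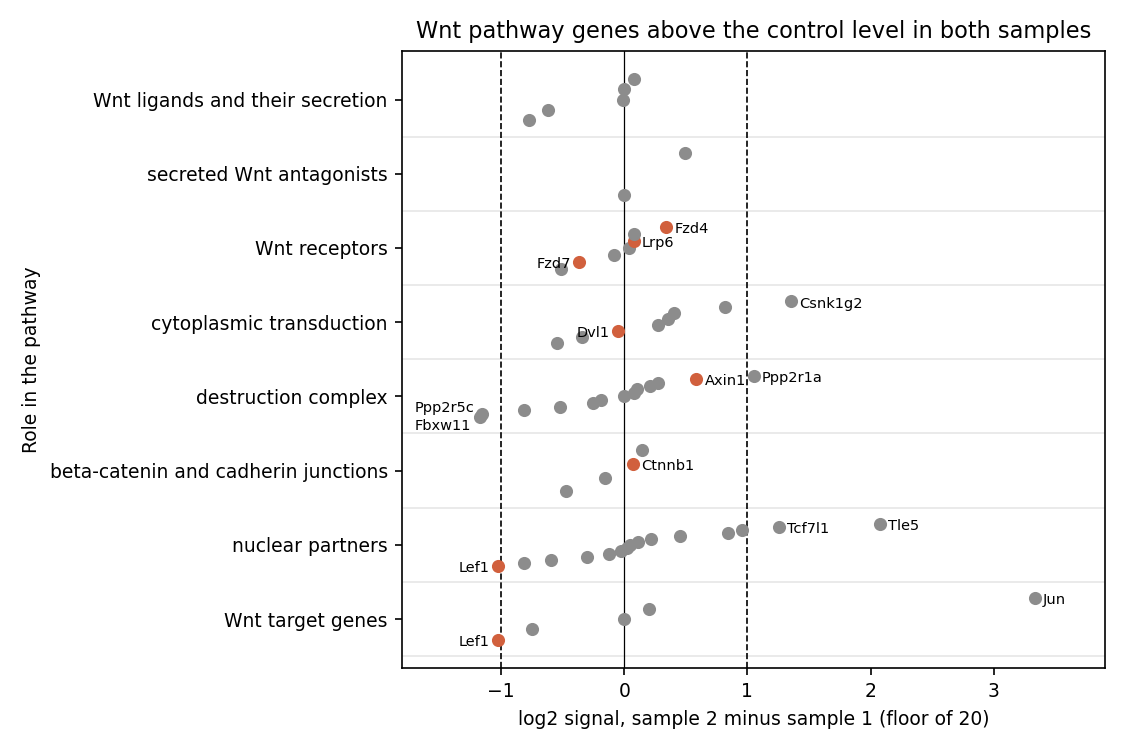
Log2 signal of sample 2 minus sample 1 (x axis, floor of 20) for each of the 58 pathway genes above the control level in both samples, by role, with members in orange, dashed lines at 2-fold, and Lef1 drawn in both of its roles. Of the members only Lef1 reaches a dashed line, and Jun lies farthest out.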

How the data were processed

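RNA of 2 LSK samples was measured on an Affymetrix mouse array with 12488 probe sets, of which 66 were controls. The deposited table gives each probe set an intensity on a linear scale, with a mean of 53.9 in both samples. Its summarising and scaling software was not given in the sources used here. Genes were named by the platform annotation, and promoter windows were taken from RefSeq (GRCm38.p6). Of the 12422 other probe sets, 10833 named 1 gene, 396 several and 1193 none. Both arrays were quantile-normalized, signals under 20 were set to 20 and log2 was taken. The floor held 57.8% of the values in sample 1 and 57.9% in sample 2. Genes were called above the control level or 2-fold apart as the report states. With 1 group of 2 samples no p-value was computed.

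The members and gene lists were chosen with earlier results of these data known. The genes named were all members, fixed relatives and partners of theirs, and in each role up to 3 genes most apart past 2-fold. Wnt1, Wnt5b, Wnt10a, Wls, Fzd3, Fzd8, Fzd9, Birc5, Ccnd1, Myc, Thy1, Lat, Zap70, Ighm, Cd79a and Cd79b lie outside this rule and were picked with their values in view. Alternatives were the deposited and median-centred scalings, the mean over probe sets, 2 other control levels, no floor, an offset of 32, no filter, and each sample alone. The scripts were tested on simulated data with less noise than these arrays, and with larger shifts than that of Lef1 in genes of stronger signal. That test does not show how the 2-fold call behaves at the noise and signals of the members. The scripts used Python 3.11.15, numpy 2.4.6, pandas 2.3.3 and matplotlib 3.10.9.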

Additional observations from a re-analysis of the deposited data

How the results depend on the processing

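The members' median difference stayed between -0.05 and 0.10 on the log2 scale under the 9 alternatives that give it. Lef1 was higher in sample 1 wherever a value was given, by 1.11 on the log2 scale with the deposited values. Other control levels and no filter could not move its 1.02, since they decide only whether a gene is counted. Leaving out the floor could not move it either, since both signals lay above the floor. The difference (sample 2 minus sample 1) was -0.96 with median-centred arrays and -0.66 with an offset of 32, so that in both cases 0 members were 2-fold apart. With the mean over probe sets, where all of a gene's probe sets had to pass, 4 of the 8 members were above the control level, without Fzd4, Lrp6 and Lef1. Then 0 members and 5 pathway genes were 2-fold apart. The level set by organ genes left 26 of 110 pathway genes above it, beside 22.5% of all genes. Of the 26, 3 were 2-fold apart, fewer by construction, and an offset of 32 left 2 apart. The share of all genes 2-fold apart was not computed under any alternative, so these counts have nothing to be set beside. With either sample alone, 7 members and 63 to 74 pathway genes were above the control level, and no fold can be had from 1 sample. Where the probe set used had itself to be above the level, an alternative chosen after seeing the data, 7 members and 57 pathway genes were above it. No share over all genes was computed for this count, for the mean over probe sets or for single samples. No paired analysis was possible because there is 1 group.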
